A study of Homo sapiens with 8 samples.

Results

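The transporter and ion channel genes described here are the genes of the deposited expression table whose symbols name solute carriers (SLC), ATP-binding cassette transporters of families A, B, C, D and G (ABC), or subunits of potassium (KCN), calcium (CACN), sodium (SCN), TRP (TRPM, TRPV, TRPC) and chloride (CLCN) channels. They were found by symbol alone. Symbols with a hyphen or ending in P plus digits were left out, and so were 7 genes left out by name, among them SLC2A3, SLC4A1 and SLC7A11. This gave 38 genes of the 1950 in the table, namely 19 SLC carriers, 4 ABC transporters and 15 channel genes. The water channel genes AQP1 and AQP7 end in P plus a digit and fall outside the rule by its letter. They are given beside the 38 and are not counted among them.

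The cells were K562, an established human line from chronic myeloid leukemia. In the extract group, 4 libraries came from cells kept for 3 days with 80 µg/mL of CPM, an extract that the series title spells out as Caulis Polygoni Multiflori. In the control group, 4 libraries came from cells without CPM, whose time in culture the sample labels do not state, so this time and the extract cannot be told apart. The libraries are called extract 1 to 4 and control 2 to 5, as numbered in the labels. No label states that each library had its own culture. Every p-value therefore reflects the scatter among these libraries alone, and that scatter may be technical.

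Solute carriers move nutrients, metabolites and inorganic ions across the plasma membrane and organelle membranes, either down a gradient or coupled to another ion. Many ABC transporters use ATP to pump lipids, drugs or metabolites across membranes, often outward. Several of them can contribute to the drug resistance of leukemia cells. Ion channels open a pore that lets selected ions pass, and their auxiliary subunits tune how the pore opens and how much channel reaches the membrane.

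The table listed genes already chosen by the authors for a difference between these same libraries, since no deposited p-value exceeded 0.0499 and every deposited log2 fold change was 0.59 or more in size. A call on any of them is therefore not independent evidence, and transporter and channel genes not in the table were not analysed here. No source used here gives the unit of the values, and each gene is therefore compared between groups and not with other genes. The depth behind the values is unknown, and no counting error is given. The listed values summed to between 13114 and 14134 per library. Of the 9 K562 and erythroid marker genes checked, only HBZ was listed, at 2834.06 to 2920.21 in control and 4951.9 to 5306 in extract, so the labelled cell type could be checked on this gene alone. Among markers of other cells, 2 of 5 lymphoid genes were listed, among them CD3D at 40.05 to 43.78 in control and 18.5 to 22.87 in extract. Likewise 1 of 5 monocyte and granulocyte genes (CD68, 21.6 to 23.25 and 13.99 to 15.64), 1 of 3 fibroblast genes (COL1A1, 0.47 to 0.67 and 0.24 to 0.36) and 0 of 4 epithelial genes were listed. The part of these genes in the results below was not tested.

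The 38 genes were mostly low. Testing required that 4 or more of the 8 libraries reach a value of 1, and 14 of the 38 (36.8%) met it, against 38.5% of all listed genes. Of the 14, 10 reached a value of 1 in all 8 libraries, 3 (CLCN4, SLC30A3 and SLC35E4) did so in every control library but not in every extract library, and 1 in neither whole group. Those 3 genes could enter the test through the group in which they were high, and SLC35E4 entered through that group alone. In limma, fitted to log2(value + 1) of all 750 tested genes, 13 of the 14 had an adjusted p under 0.05 (Benjamini-Hochberg), where 82.8% of all tested genes did. There were 6 higher with the extract (42.9% of the 14, against 26.8% of all tested genes) and 7 lower (50%, against 56%). Their median log2 change was -0.28, against -0.50 over all tested genes. Control and extract libraries were fully apart in 11 of the 14 (78.6%), against 67.7% of all tested genes.

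The median of the tested genes was itself lower in the extract libraries, by -0.27 on the log2 scale. Centring each library on that median left the 6 rises in place and 2 of the 7 falls, KCNMB3 and SLC16A3, and it turned the split over all tested genes from 201 higher and 420 lower to 228 higher and 241 lower. That median came from genes chosen as changed, and the table gives no means of choosing between these scalings.

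**Figure D1:**
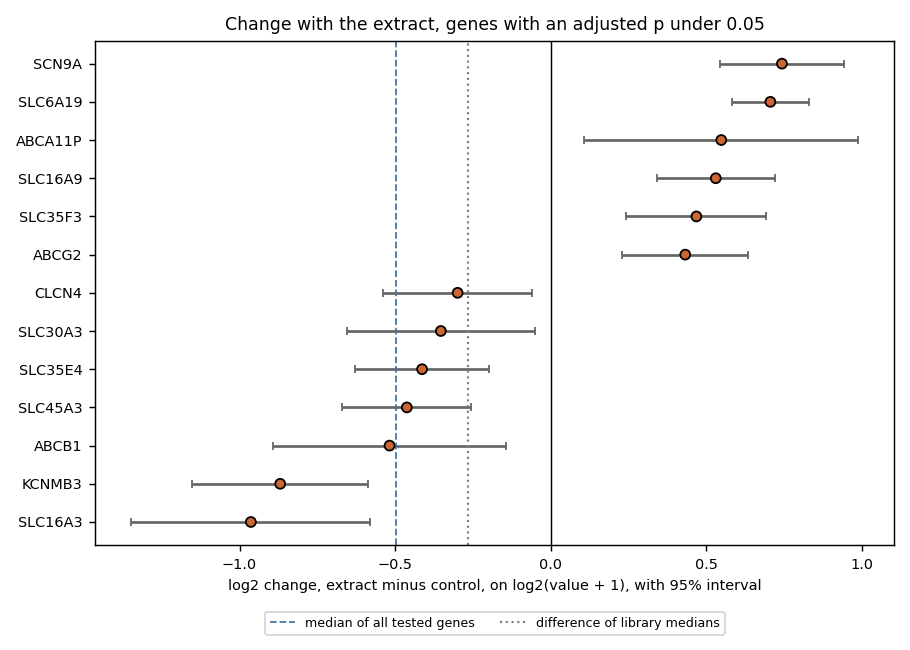
Log2 change (extract minus control, on log2(value + 1)) of the 13 transporter and channel genes with an adjusted p under 0.05, with 95% intervals from limma. SCN9A and SLC6A19 lie highest, at 0.74 and 0.71, and SLC16A3 and KCNMB3 lowest, at -0.96 and -0.87; the dashed line is the median of all tested genes (-0.50) and the dotted line the difference of the library medians (-0.27).

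The promoter sequences of 4 genes are shown before their values, to set beside each other genes that rose, the amino acid carrier SLC6A19 and the drug pump ABCG2, and genes that fell, the drug pump ABCB1 and the channel subunit KCNMB3. Each sequence is a RefSeq window (GRCh38.p14) of 250 bases before to 50 bases after an annotated start, written 5′ to 3′ on the strand of the gene. Capitals mark matches on either strand to 4 motifs. The E-box was searched as CACGTG and the AP-1 site as TGANTCA. The GATA site was searched as AGATAA, and the STAT site as TTCNNNGAA. Each window printed holds a single match, so no motifs overlap there. Which start K562 cells use was not measured here, and ABCG2, ABCB1 and KCNMB3 have further windows that are not printed. The windows are chr5:1201345-1201644 on the plus strand for SLC6A19 and, on the minus strand, chr4:88158810-88159109 for ABCG2, chr7:87600835-87601134 for ABCB1 and chr3:179267001-179267300 for KCNMB3.
SLC6A19: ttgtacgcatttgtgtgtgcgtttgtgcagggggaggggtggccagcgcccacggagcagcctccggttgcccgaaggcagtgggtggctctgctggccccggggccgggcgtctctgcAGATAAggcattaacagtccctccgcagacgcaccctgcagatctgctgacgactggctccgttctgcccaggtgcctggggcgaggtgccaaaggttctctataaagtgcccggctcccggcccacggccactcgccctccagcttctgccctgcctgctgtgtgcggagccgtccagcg
ABCG2: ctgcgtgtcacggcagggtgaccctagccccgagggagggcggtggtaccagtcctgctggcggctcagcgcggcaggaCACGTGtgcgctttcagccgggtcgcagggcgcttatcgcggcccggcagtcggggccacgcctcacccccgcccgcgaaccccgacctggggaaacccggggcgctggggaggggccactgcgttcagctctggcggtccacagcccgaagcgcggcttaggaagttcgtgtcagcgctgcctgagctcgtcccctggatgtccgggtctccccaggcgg
ABCB1: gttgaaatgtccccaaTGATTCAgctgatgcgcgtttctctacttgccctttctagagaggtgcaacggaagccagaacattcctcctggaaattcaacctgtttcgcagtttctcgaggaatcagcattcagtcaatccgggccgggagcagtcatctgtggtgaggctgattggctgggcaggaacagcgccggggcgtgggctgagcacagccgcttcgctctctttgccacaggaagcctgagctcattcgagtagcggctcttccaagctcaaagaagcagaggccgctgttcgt
KCNMB3: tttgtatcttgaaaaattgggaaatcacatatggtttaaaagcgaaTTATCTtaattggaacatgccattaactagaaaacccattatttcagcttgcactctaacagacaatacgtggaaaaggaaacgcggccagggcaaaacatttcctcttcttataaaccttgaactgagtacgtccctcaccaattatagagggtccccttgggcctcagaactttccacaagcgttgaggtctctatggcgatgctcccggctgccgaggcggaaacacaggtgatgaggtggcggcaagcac

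In these windows the capitals mark a GATA match in SLC6A19 and in KCNMB3, an E-box in ABCG2 and an AP-1 match in ABCB1. Windows not printed differ in their matches. They include a GATA match in ABCB1, an AP-1 and a GATA match in KCNMB3, a STAT match in ABCG2, and windows of ABCG2 and KCNMB3 without a match. The SLC6A19, ABCG2, ABCB1 and KCNMB3 windows printed held 21, 33, 16 and 11 CG pairs, where the median of all 35116 windows was 14. Those not printed held 3 to 35 in ABCG2, 1 in ABCB1, and 2 and 3 in KCNMB3. RefSeq windows were found for 28 of the 38 genes, 50 windows in all. An E-box was in 9 of the 50 (7.26% of all windows held one), a GATA site in 8 (10.3% of all), an AP-1 site in 5 (7.71%) and a STAT site in 3 (7.66%). Several windows of 1 gene overlap each other, so these are not independent counts, and a match is a description of the letters only.

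Among amino acid carriers, SLC6A19 rose. It codes for a sodium-coupled carrier that takes up neutral amino acids in the gut and kidney (ENSG00000174358, chromosome 5, 1201595 to 1225117, plus strand). Its values were 11.51, 11.96, 12.35 and 12.26 in control 2 to 5 and 19.99, 21.28, 18.9 and 20.87 in extract 1 to 4. Every extract library lay above every control library, and the libraries of each group lay close together. The means were 12.02 ± 0.379 and 20.3 ± 1.05 (SD, n = 4 each), a 1.69-fold difference, and the log2 change was 0.71 ± 0.05 (SE; limma adjusted p = 1.78e-05). The other gene of this class in the table, the retinal glutamate carrier SLC1A7, was listed at 0 in all 4 control libraries and in extract 2 and 3, with 0.08 and 0.06 in extract 1 and 4.

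Monocarboxylate carriers of the SLC16 family moved in different directions. SLC16A3 codes for MCT4, the carrier by which glycolytic cells export lactate (ENSG00000141526, chromosome 17, 82228397 to 82261129, with 482 exonic bases shared with CSNK1D on the other strand). Its values were 6.11, 6.38, 4.34 and 5.21 in control 2 to 5 and 3.37, 2.12, 1.75 and 2.21 in extract 1 to 4. Even the highest extract library, extract 1, was under the lowest control library, control 4. The means of 5.51 ± 0.927 and 2.36 ± 0.701 gave a log2 change of -0.96 ± 0.17 (SE; limma adjusted p = 0.0013), the largest fall of the 14.

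SLC16A9, which codes for a carrier of carnitine and related solutes, rose instead (ENSG00000165449, chromosome 10, 59650761 to 59736002). It stood at 2.16, 1.97, 2.03 and 1.91 in control and at 3.53, 3.57, 3.1 and 3.25 in extract. The groups were well apart, with means of 2.02 ± 0.107 and 3.36 ± 0.226 and a log2 change of 0.53 ± 0.08 (limma adjusted p = 0.0008). Another gene of the family, SLC16A5, was just under the filter, at 0.93 to 1.25 in control and 0.5 to 0.87 in extract, without overlap. The calls of SLC16A3 and SLC16A9 were lost with an adjustment over 60664 genes, the family size of the authors' own adjustment. Limma's adjusted p was 0.105 and 0.0617 there, the highest over the 18 limma alternatives, whose lowest were 0.000616 and 0.000134. Only the 750 tested genes had limma p-values, and all other genes were ranked behind them, so this is the strictest reading of that family.

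In the SLC35 family, whose best known members carry nucleotide sugars into the Golgi, SLC35F3 rose and SLC35E4 fell. SLC35F3, described as a thiamine carrier, had values of 1.39, 1.02, 1.36 and 1.08 in control and 2.29, 1.85, 2.02 and 2.07 in extract. No library overlapped, the means were 1.21 ± 0.190 and 2.06 ± 0.181, and the log2 change was 0.47 ± 0.10 (SE; limma adjusted p = 0.0032). Its call was lost with a replicate block (limma adjusted p = 0.052) and over 60664 genes (adjusted p = 0.259), with 0.000316 the lowest value over the 18 limma alternatives.

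SLC35E4, whose substrate is not established, had 1.35, 1.51, 1.2 and 1.34 in control and 0.74, 0.75, 0.97 and 0.61 in extract. The groups were again apart, with means of 1.35 ± 0.127 and 0.768 ± 0.149 and a log2 change of -0.41 ± 0.09 (limma adjusted p = 0.0047). Every extract value was under 1, so SLC35E4 passed the filter through its control libraries alone, the group in which it was high. Of its exons 1530 bases overlap those of DUSP18 on the other strand. The call was lost with median centring (adjusted p = 0.205) and over 60664 genes (adjusted p = 0.378), with 0.00278 the lowest value over the 18 limma alternatives.

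SLC45A3, which codes for prostein, a sugar carrier known from prostate tissue, fell (ENSG00000158715, chromosome 1, 205657851 to 205680459). Its values were 2.14, 2.03, 2.33 and 2.14 in control and 1.33, 1.16, 1.17 and 1.53 in extract. All extract libraries were lower than all control libraries, the means were 2.16 ± 0.125 and 1.30 ± 0.173, and the log2 change was -0.46 ± 0.09 (SE; limma adjusted p = 0.0022). Median centring and the adjustment over 60664 genes ended this call (adjusted p = 0.0864 and 0.181), and the lowest value over the 18 limma alternatives was 0.00108.

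The zinc carrier SLC30A3, known for loading zinc into synaptic vesicles, fell from 1.44 ± 0.234 to 0.92 ± 0.284 (n = 4 each). Here the groups overlapped, since extract 4 (1.27) exceeded control 4 (1.16). Its limma adjusted p was 0.0353, and the call was lost in 12 of 18 limma alternatives, with adjusted p between 0.0170 and 1. They included the fits without extract 1, 2 or 3 or control 2, 3 or 5, median centring (adjusted p = 0.576) and the replicate block (adjusted p = 0.244).

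Of the ABC drug pumps, ABCG2 rose and ABCB1 fell. ABCG2 codes for the breast cancer resistance protein, which exports urate, porphyrins and many drugs (ENSG00000118777, chromosome 4, 88090264 to 88231322). Its values were 1.7, 1.48, 1.37 and 1.68 in control and 2.58, 2.49, 2.22 and 2.51 in extract. The lowest extract library was above the highest control library. The means were 1.56 ± 0.160 and 2.45 ± 0.158, a 1.57-fold difference, and the log2 change was 0.43 ± 0.09 (SE; limma adjusted p = 0.0029). This call was lost over 60664 genes (adjusted p = 0.231) and kept in the other 17 limma alternatives, where the lowest adjusted p was 0.000314.

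ABCB1 codes for P-glycoprotein, the multidrug efflux pump (ENSG00000085563, chromosome 7, 87503633 to 87713323). Its control values were uneven, at 2.75 and 3.33 in control 2 and 3 and at 4.82 and 5.11 in control 4 and 5, while extract 1 to 4 were at 2.5, 2.34, 2.51 and 2.35. The groups did not overlap, but control 2 was only slightly above the extract libraries. The means of 4.0 ± 1.14 and 2.43 ± 0.0926 gave a log2 change of -0.52 ± 0.16 (limma adjusted p = 0.0196). The call was lost without control 4 (adjusted p = 0.0504), with quantile normalization (adjusted p = 0.158), after median centring (adjusted p = 0.189), with the replicate block (adjusted p = 0.082), in the same 6 libraries without the block (adjusted p = 0.073) and over 60664 genes (adjusted p = 1), and the lowest value over the 18 limma alternatives was 0.00555.

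The remaining tested ABC gene, ABCA11P, is annotated as a transcribed pseudogene and makes no known transporter. It rose from 1.72 ± 0.460 to 3.02 ± 0.929 (limma adjusted p = 0.0286), with overlapping groups, since extract 4 (2.1) and extract 2 (2.35) lay under control 3 (2.36). Of its exons 1647 bases overlap ZNF721 on the same strand, so reads may be shared between them. Leaving out extract 1 or 3 or control 2 or 4 ended the call (adjusted p between 0.0679 and 0.0711), as did the 6 libraries of replicates 2, 3 and 4 without a block (adjusted p = 0.108) and the adjustment over 60664 genes (adjusted p = 1), and the lowest value over the 18 limma alternatives was 0.00591. ABCG8, which pumps sterols in the liver and gut, was at most 0.03 in any library.

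**Figure D2:**
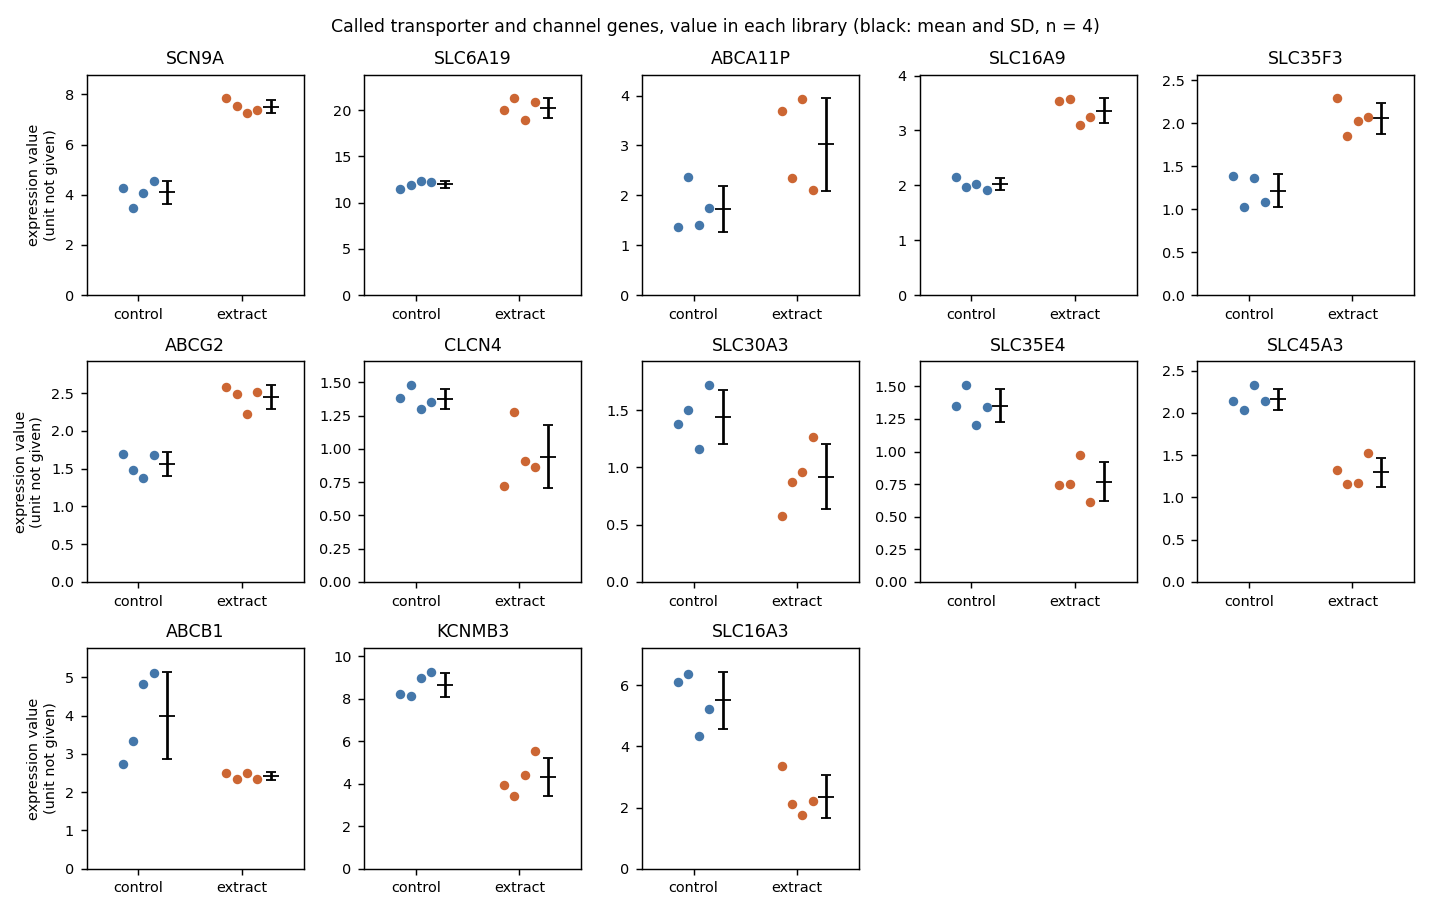
Expression value (unit not given) of each of the 13 called transporter and channel genes in every control and extract library, with group mean and SD in black (n = 4 each). The groups are apart in 11 genes and overlap in ABCA11P and SLC30A3; in ABCB1 the control libraries spread from 2.75 to 5.11.

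Among channel genes, the sodium channel gene SCN9A rose and the potassium channel subunit gene KCNMB3 fell. SCN9A codes for the pore-forming subunit of a voltage-gated sodium channel best known from pain-sensing neurons (ENSG00000169432, chromosome 2, 166195185 to 166376001). Its values were 4.27, 3.48, 4.07 and 4.56 in control and 7.85, 7.52, 7.27 and 7.39 in extract. The extract libraries lay close together and well above the control libraries. The means were 4.10 ± 0.457 and 7.51 ± 0.250, a 1.83-fold difference, and the log2 change of 0.74 ± 0.09 (SE; limma adjusted p = 0.0002) was the largest rise of the 14. The antisense gene AC010127.1 overlaps 1122 bases of its exons on the other strand and is not in the table.

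SCN1A, the neighbouring sodium channel gene on chromosome 2, lies 45970 bases from SCN9A and was listed at 0 in all control libraries and in extract 1 and 4, with 0.04 in extract 2 and 3.

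KCNMB3 codes for an auxiliary subunit of the large-conductance calcium-activated potassium channel (ENSG00000171121, chromosome 3, 179236691 to 179267002). Its values were 8.23, 8.11, 8.96 and 9.26 in control and 3.93, 3.43, 4.42 and 5.52 in extract. The highest extract library, extract 4, was still well under the lowest control library. The means of 8.64 ± 0.559 and 4.33 ± 0.893 gave a log2 change of -0.87 ± 0.12 (SE; limma adjusted p = 0.0005). Of its exons 3403 bases overlap those of PIK3CA on the other strand. No source used here says whether the libraries keep strand. It is therefore not known whether reads from the bases shared by such a pair can be told apart. PIK3CA is not in the table.

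The other 4 potassium channel genes, KCNAB1, KCNG3, KCNJ3 and KCNT2, were all under the filter, and all had a lower deposited fold change, so that the 5 potassium channel genes of the table were 0 higher and 5 lower, where 56.4% of all listed genes were lower. KCNJ3, a pore subunit of a channel opened by G proteins, was at 0.2, 0.02, 0.13 and 0 in control 2 to 5 and listed at 0 in every extract library. KCNT2, a pore subunit of sodium-activated potassium channels, was at 0.18 to 0.35 in control and 0.09 to 0.22 in extract. KCNAB1 and KCNG3, which code for an auxiliary and a silent subunit of voltage-gated channels, were at 0.3 or less in every library. None of these 4 passed when the 1947 genes with a value above 0 in any library were tested without a filter (limma adjusted p between 0.0666 and 0.114). In the authors' deposited table KCNT2 alone of these 4 had an adjusted p under 0.05 (0.0438).

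The chloride-proton exchanger gene CLCN4, which acts on endosomes, had values of 1.38, 1.48, 1.3 and 1.35 in control and 0.72, 1.28, 0.91 and 0.86 in extract. Extract 2 almost reached the lowest control library. The means were 1.38 ± 0.0759 and 0.943 ± 0.239, and the log2 change was -0.30 ± 0.10 (SE; limma adjusted p = 0.0287). This call was lost in 11 of 18 limma alternatives, with adjusted p between 0.00778 and 1. They included the fits without extract 1, 3 or 4 or control 2, 3 or 5, median centring (adjusted p = 0.805) and the replicate block (adjusted p = 0.147).

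**Figure D3:**
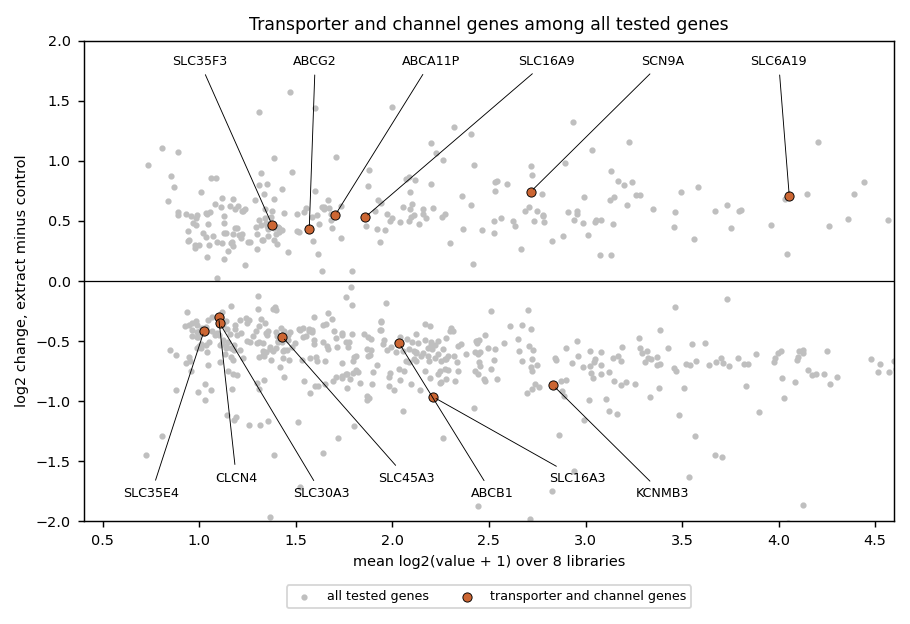
Mean log2(value + 1) over the 8 libraries (horizontal axis) and log2 change with the extract (vertical axis) of all tested genes (grey) and the 13 called transporter and channel genes (orange, named); 68 genes lie outside the axes. The 13 lie within the range of the other genes, between -0.96 and 0.74.

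The 24 genes under the filter had a median value of 0.198 over the 8 libraries and at most 0.909. By the fold change of the authors' deposited table, 11 of them were higher and 13 lower, and all 38 genes were 17 higher (44.7%, against 43.6% of all listed genes) and 21 lower. By class, the SLC carriers were 10 higher and 9 lower, the ABC genes 3 higher and 1 lower, and the channel genes 4 higher and 11 lower. The authors' deposited table gave 20 of the 38 an adjusted p under 0.05 (52.6%, against 45.9% of all listed genes). Of the 24 low ones, 7 had one there, 4 higher and 3 lower. Of all listed genes 896 had one, and 608 of these were past the filter. The rest were among the 1200 listed genes under it, so such a value was not particular to the low transporter and channel genes.

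Groups were apart for 5 of these 24 (20.8%), against 25.8% of all listed genes under the filter. Besides SLC16A5 they included SLC5A5, TRPV1 and CACNA1I. SLC5A5, the iodide carrier of the thyroid, was at 0.54, 0.65, 0.67 and 0.66 in control and 0.47, 0.32, 0.33 and 0.31 in extract. TRPV1, the channel opened by heat and capsaicin, was at 0.16, 0.05, 0.06 and 0.06 in control and 0.4, 0.21, 0.22 and 0.25 in extract, and 1519 bases of its exons overlap a gene on the same strand. CACNA1I, a low-voltage-activated calcium channel gene, was at 0.04 to 0.06 in control and 0.09 to 0.16 in extract. Without the filter, limma passed TRPV1 and CACNA1I as higher (adjusted p = 0.0331 and 0.0495) and SLC16A5 and SLC5A5 as lower (adjusted p = 0.0262 and 0.0254). That fit passed 8 of the 38 as higher and 8 as lower, and 44.9% of all 1947 genes in either direction.

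The other low carriers with the highest values overlapped between groups. SLC52A3, a riboflavin carrier gene, was at 0.71 to 1.17 in control and 0.32 to 0.71 in extract. SLC41A2, a magnesium carrier gene, was at 0.05 to 0.72 and 0.24 to 0.84, and SLC25A34, of the mitochondrial carrier family, at 0.1 to 0.33 and 0.28 to 0.51. SLC5A2, the glucose carrier of the kidney, was at 0 to 0.21 in control and 0.18 to 0.87 in extract, and 1390 bases of its exons overlap a gene on the other strand. In SLC41A2 the libraries of each group were spread widely.

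Further low genes stayed at 0.71 or less in every library. SLC4A11, a boric acid transporter family gene, was at 0.21 to 0.71 in control and 0.04 to 0.28 in extract. SLC30A2, a zinc carrier gene, was at 0.2 to 0.42 and 0.14 to 0.26, and the calcium channel subunit gene CACNA2D2 at 0.16 to 0.44 and 0.08 to 0.38. The sodium-proton exchanger gene SLC9A4 was at 0.1 to 0.11 and 0.1 to 0.37, and SLC35G6 at 0 to 0.08 and 0 to 0.26. SLC5A10, a sugar carrier gene of the kidney, was listed at 0 in every control library and at most at 0.03 in extract.

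**Figure D4:**
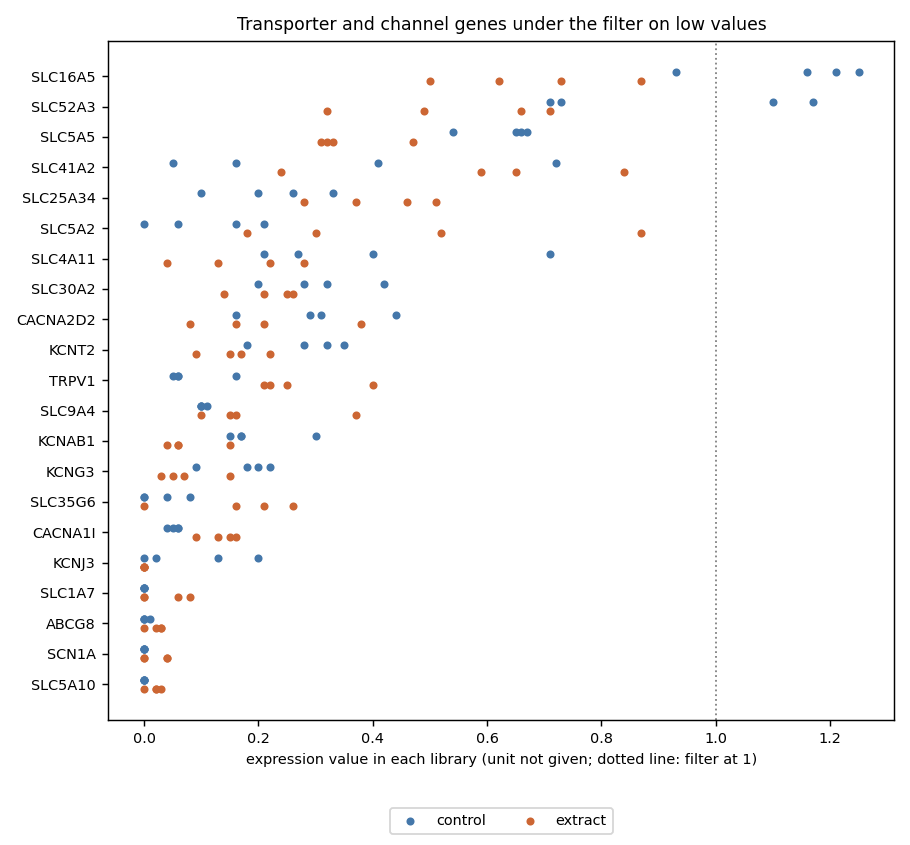
Expression value (unit not given) of 21 transporter and channel genes under the filter in every control (blue) and extract (orange) library, ordered by mean; the dotted line marks a value of 1. Groups are apart in SLC16A5, SLC5A5, TRPV1 and CACNA1I, and overlap in the others shown.

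The water channel gene AQP1, which red cells carry in quantity, fell (ENSG00000240583, chromosome 7, 30911694 to 30925516). It had 7.81, 7.95, 8.24 and 8.29 in control and 5.38, 4.87, 5.05 and 5.33 in extract. Both groups were tight and far apart, with means of 8.07 ± 0.230 and 5.16 ± 0.240 and a log2 change of -0.56 ± 0.07 (SE; limma adjusted p = 0.000182). The call held in all 18 limma alternatives run, and 910 bases of its exons overlap another gene model on the same strand, AC004691.2. AQP7, a glycerol-permeable channel gene, was at 0 to 0.69 in control and 0.18 to 0.71 in extract. Counting both would give 6 higher and 8 lower among 15 tested.

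Fold changes in the authors' deposited table differed from the ratios of the deposited means. Of the 38 genes, 3 had an absolute deposited log2 fold change under 0.6, close to the lower limit of the table. They included ABCB1 and CLCN4, at -0.59 each in the authors' deposited table, against log2 ratios of means of -0.72 and -0.55. For SLC16A3 the log2 ratio of means was -1.22, where the authors' deposited table gave -0.84.

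Genes of other pumps and channels, taken by symbol, were listed 13 times, 5 higher and 8 lower in the authors' deposited table. Of all listed genes 43.6% were higher. Of the 13, 6 were tested, and in limma 2 rose and 4 fell, where 26.8% of all tested genes were called higher and 56% lower. CNGA4, a subunit of the olfactory cyclic nucleotide-gated channel, fell from 45.9 ± 5.84 to 24.1 ± 3.90 (n = 4 each; limma adjusted p = 0.000479). The pacemaker channel gene HCN2 fell from 1.34 ± 0.102 to 0.798 ± 0.112, the irritant-sensing channel gene TRPA1 from 1.76 ± 0.566 to 0.88 ± 0.392, and the lysolipid carrier gene MFSD2A from 1.59 ± 0.0804 to 0.80 ± 0.181. Of these, TRPA1 overlapped between groups. The acid-sensing channel gene ASIC3 rose from 0.785 ± 0.173 to 1.90 ± 0.556 and CALHM2, of a large-pore channel family, from 0.975 ± 0.219 to 1.69 ± 0.379. HCN2, TRPA1 and MFSD2A reached a value of 1 in every control library but not in every extract library, and ASIC3 and CALHM2 the reverse. These genes could enter the test through the group in which they were high, and HCN2 entered through that group alone.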

How the data were processed

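RNA of 8 K562 libraries was sequenced after TRIzol extraction and a TruSeq library preparation, per the labels' protocols. HISAT2, StringTie and the build GRCh38 are listed in the submitters' processing notes, with neither roles nor versions. The authors deposited 1 table with an expression value per gene and library (unit not given in the sources used here), a fold change ratio and its log2, and a p-value with its adjusted p-value from a test that is not named. The members, classes, motifs and tests were chosen with earlier results of these data known. limma 3.58.1 (R 4.3.3, trended and robust empirical Bayes) was fitted to log2(value + 1). It took the 750 genes that reached a value of 1 in 4 or more libraries. Tests were two-sided, and genes were called at a Benjamini-Hochberg adjusted p under 0.05. The step was tested on simulated data in which most genes were left unchanged. The listed genes were instead chosen as changed, so that test does not give the error of these calls. All called genes are named; single library values are given for called genes whose groups were apart and for the 4 tested genes with the highest mean; 4 low genes per direction are named by highest mean, and further low genes were named after their values were seen. From the prefixes used for other pumps and channels, 1 that matched a receptor gene was dropped after the data were seen. Dividing deposited p-values by adjusted ones gave whole ranks (within 0.02) for 100% of 1125 genes at a family of 60664. Alternatives were other pseudocounts (0.1 and 0.5), filters, scalings and moderation, leaving out each library, a replicate block, and the authors' adjusted p or family size. Libraries numbered 2, 3 and 4 in both groups were compared by their deviations from the mean of these libraries in their group, over the 750 genes. Pearson r of these deviations was 0.101, 0.103 and 0.143 for like numbers, and between -0.106 and -0.0123 for unlike numbers. Deviations from a mean of so few libraries balance out, so r of unlike numbers is not separate from r of like ones. A pairing is not stated in the labels and was not established here. Some items counted here are not reported by name. Gene positions and overlaps are from GENCODE 29 (GRCh38) and promoters from RefSeq (GRCh38.p14).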

Additional observations from a re-analysis of the deposited data

Results flagged for a closer look

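In 78 groups of 4 libraries, from the 38 genes, AQP1, AQP7 and the library totals, groups of equal values left out, 6 had 1 library set well apart from its group, and about 3.9 such groups would arise by chance. All 6 were in genes under the filter. SLC5A5 was lowest in control 2 (0.54, others 0.65 to 0.67) and highest in extract 1 (0.47, others 0.31 to 0.33). KCNAB1 was highest in control 5 (0.3, others 0.15 to 0.17). TRPV1 was highest in control 2 (0.16, others 0.05 to 0.06). ABCG8 was at 0.01 in control 4 and at 0 in the others, and SLC9A4 at 0.11 in control 2 and 0.1 in the others, each a single step of the last decimal.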

How the results depend on the processing

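The log2 changes of SCN9A, SLC6A19, KCNMB3 and AQP1 stayed past the threshold in all 18 limma alternatives run, and those of SLC16A3, SLC16A9 and ABCG2 in all but the adjustment over 60664 genes. That adjustment left 167 of all calls, and 2 higher and 1 lower among the 14. The count of lower genes, 7, was 2 with median centring and 4 with quantile normalization. It was 4 with the replicate block on the 6 libraries with shared numbers. It was also 4 on those libraries without the block, a fit added after the data were seen. The calls of ABCB1, CLCN4 and SLC30A3 were lost on those 6 libraries with or without the block. That of SLC35F3 was lost only with the block (limma adjusted p = 0.052, against 0.0238 without it). That of ABCA11P was lost only without the block (limma adjusted p = 0.108, against 0.0298 with it). No other call among the 14 was lost with the block. The median log2 change of the tested genes, -0.28, was -0.53 with a pseudocount of 0.1, -0.0857 without a filter (38 genes) and -0.0107 with median centring. Without 1 library at a time, 5 or 6 genes were higher and 5 or 6 lower. The depth is unknown, so how far it limits the low genes could not be computed.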
